A study of Mus musculus with 19 samples.

Results

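Acetylcholine acts in the cortex through muscarinic receptors, which signal through G proteins, and nicotinic receptors, which are ion channels built of 5 subunits. The genes described here are 9 of the 24130 that had an entry in the Ensembl gene tables of mouse primary somatosensory cortex (S1): the muscarinic receptor genes Chrm1, Chrm2, Chrm3 and Chrm4, and the nicotinic subunit genes Chrna3, Chrna4, Chrna5, Chrna7 and Chrnb2. They were taken by symbol, and all 9 had a value in all 7 libraries. Fibres that release acetylcholine reach every cortical layer, mainly from the basal forebrain. Chrm1 and Chrm3 encode receptors that couple to Gq and phospholipase C, and Chrm2 and Chrm4 encode receptors that couple to Gi and lower cyclic AMP. Chrna4 and Chrnb2 encode the alpha4 and beta2 subunits of the most common high-affinity nicotinic receptor of the brain, Chrna5 an accessory subunit that joins them, and Chrna7 a subunit that forms receptors on its own.

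The tissue came from male C57BL/6J mice aged 56 days, for which the labels name no treatment or transgene. S1 was cut by hand into 6 segments between the pia and the white matter. Segment A held mostly layers 1 to 3 and B mostly layer 4, C and D were the upper and lower part of layer 5, and E and F corresponded to layers 6 and 6b. Polyadenylated RNA of each segment was pooled from 8 mice and sequenced as 1 library, except that B gave a library per litter of 4 mice, named B1 and B2. The 12 samples of dorsal and lateral cortex were not analysed here. Segment B was therefore the only segment with replicates (n = 2), and the litters of B1 and B2 together made up the 8 mice of the other pools. All 7 libraries thus came from the same animals and were treated as separate units in the tests. The p-values below measure the spread between these pools, about a fitted curve or about the mean of a group of segments, and not between mice.

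Levels are FPKM, the fragments per kilobase of gene model scaled to the number of mapped fragments, which puts genes of different length on 1 scale. A comparison between genes still depends on how complete each model is, and one between libraries on their scaling. Each has a deposited 95% interval, which covers the estimation within a library and no variation between mice. The libraries held an estimated 31.3 M fragments (A) to 74.9 M (B2). Mitochondrial genes took 5.03% (F) to 21.8% (A) of all FPKM, and 7.76% in B1 against 18.2% in B2. Summed over each list, the layer markers followed the dissection. The summed FPKM of 4 markers of layers 2 to 4 was 89.2 to 123 in A, B1 and B2 and 16.3 to 55.4 in the deeper libraries. That of 4 layer 5 markers was highest in C (53.3), that of 4 layer 6 markers was 127 in E and 126 in F, and that of 4 layer 6b markers was 400 in F and at most 76.8 elsewhere. Single genes did not all do so. Of the layer 5 markers, Fezf2, Etv1 and Tmem200a were highest in C, but Bcl11b measured 13 FPKM in C and 19.5 in F. Other tissue also varied between libraries: 8 oligodendrocyte markers summed to 326 in A and rose through every deeper segment to 12506 in F, and 6 meningeal markers summed to 37.5 in A and 4.52 to 7.37 elsewhere. Their part in the results below was not tested. A change in a bulk segment can come from the number of cells of a type or from the RNA per cell, and these cannot be told apart here.

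Chrna4, Chrna5, Chrna7 and Chrm2 had the steepest slopes with depth of the 9 genes, all of them upward. The regions around their annotated starts are shown for that reason. Their profiles were not alike at every step, since Chrna4 was highest in F, where Chrm2 and Chrna7 were lower than in E. They are 300 bases each, 250 before and 50 after the start, from RefSeq on GRCm38.p6, printed 5′ to 3′ on the strand of the gene. Capitals mark matches on either strand to 3 motifs. The GC box was searched as GGGCGG and the E-box as CACGTG. The CCAAT box was searched by the letters of its name. Chrna5 has 2 such starts in the table, and both are given.
Chrna4 (chr2:181039128-181039427, minus strand): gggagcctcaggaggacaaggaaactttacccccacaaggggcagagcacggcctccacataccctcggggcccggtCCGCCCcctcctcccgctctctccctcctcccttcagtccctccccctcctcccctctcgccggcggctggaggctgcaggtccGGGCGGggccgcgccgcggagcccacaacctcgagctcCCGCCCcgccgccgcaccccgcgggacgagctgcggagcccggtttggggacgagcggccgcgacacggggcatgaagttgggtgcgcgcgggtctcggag
Chrna7 (chr7:63212477-63212776, minus strand): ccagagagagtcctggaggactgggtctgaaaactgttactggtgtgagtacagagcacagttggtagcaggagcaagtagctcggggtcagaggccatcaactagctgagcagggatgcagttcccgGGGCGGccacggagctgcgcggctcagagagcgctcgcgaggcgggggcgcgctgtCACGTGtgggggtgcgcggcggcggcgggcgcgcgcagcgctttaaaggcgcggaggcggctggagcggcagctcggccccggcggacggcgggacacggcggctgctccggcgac
Chrm2 (chr6:36387834-36388133, plus strand): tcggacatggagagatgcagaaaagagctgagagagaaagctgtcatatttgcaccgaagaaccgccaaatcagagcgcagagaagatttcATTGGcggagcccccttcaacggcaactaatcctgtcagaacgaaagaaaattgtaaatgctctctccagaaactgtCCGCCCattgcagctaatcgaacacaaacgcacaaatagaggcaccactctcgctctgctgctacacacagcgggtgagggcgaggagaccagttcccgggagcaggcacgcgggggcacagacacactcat
Chrna5, upstream start (chr9:54980630-54980929, plus strand): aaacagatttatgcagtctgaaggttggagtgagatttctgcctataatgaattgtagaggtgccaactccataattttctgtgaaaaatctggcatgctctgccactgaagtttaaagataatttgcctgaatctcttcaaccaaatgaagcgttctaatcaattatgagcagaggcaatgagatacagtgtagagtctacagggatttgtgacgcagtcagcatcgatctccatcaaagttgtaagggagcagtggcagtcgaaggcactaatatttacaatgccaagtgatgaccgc
Chrna5, downstream start (chr9:54981238-54981537, plus strand): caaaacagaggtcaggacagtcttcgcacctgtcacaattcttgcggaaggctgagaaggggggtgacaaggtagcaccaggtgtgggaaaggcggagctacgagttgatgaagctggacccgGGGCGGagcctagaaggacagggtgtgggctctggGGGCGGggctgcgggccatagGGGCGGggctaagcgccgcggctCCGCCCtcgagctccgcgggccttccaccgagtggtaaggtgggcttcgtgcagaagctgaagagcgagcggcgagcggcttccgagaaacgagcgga

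The Chrna4 region was 74.3% G and C and held 3 GC boxes, that of Chrna7 was 70% G and C with 1 GC box and 1 E-box, and that of Chrm2 was 52.7% with 1 GC box and 1 CCAAT box. The upstream region of Chrna5 was 41.3% G and C and held none of these motifs, and the downstream one was 65% with 4 GC boxes. Across the 32851 start regions of the table the median was 52.7% G and C, 35.7% held a GC box, 37.4% a CCAAT box and 7.15% an E-box. None of the 9 regions found for 8 of the 9 receptor genes held a TATA box (TATAAA), against 13.6% of all regions, or a cyclic AMP response element (TGACGTCA), against 1.79%. A match of letters describes the sequence only.

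Chrna4 (ENSMUSG00000027577, mm9 chr2:180757016-180774010), the alpha4 subunit, climbed without a break from the surface to the white matter by its Ensembl model. Its level was 2.23 FPKM in A, 4.82 (B1) and 4.42 (B2) in layer 4, 11.1 (C) and 15.0 (D) in layer 5, 19.0 in layer 6 (E) and 24.1 in layer 6b (F). The 4 deep libraries (C to F) all lay above the 3 upper ones, and the deposited intervals of every pair of neighbours in this order were apart except those of B1 and B2. By this model, the highest level was 10.8 times the lowest. The de novo loci, whose extent differed between libraries, did not repeat every step. There D (55.9 FPKM) was below C (73.6) with intervals apart. A (19.6), B1 (21.1) and B2 (22.3) overlapped, and E (140) and F (216) were the highest. Log2(FPKM + 0.1) was fitted with limma on a linear and a quadratic term of segment position. The fit covered the 17844 genes whose mean reached 0.1 FPKM. The slope of Chrna4 was 0.67 log2 units per segment (limma adjusted p = 0.00154). The adjusted p beside a slope is that of both terms together, unless a linear term alone is named. A curve with a slope near 0 can therefore pass. The deep libraries exceeded the upper ones by 2.16 ± 0.344 log2 units (SE, 4 against 3 libraries), or 4.48-fold on the scale of log2(FPKM + 0.1), with a limma adjusted p of 0.0452. The trend was called in all 17 alternative settings, with slopes of 0.574 to 0.775. The deep difference was called in 7 of its 17 alternatives, among which leaving out C and leaving out upper layer 5 are the same fit. Its adjusted p was 0.0687 without A, 0.0645 without B1, 0.0665 without B2, 0.141 without D, 0.175 without E and 0.125 without F, with differences of 1.82 to 2.36 log2 units.

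Chrna5 (ENSMUSG00000035594, mm9 chr9:54828904-54854632), the accessory alpha5 subunit, was low from the surface through upper layer 5 and highest in layers 6 and 6b. Its level was 0.157 FPKM at the surface (A), 0.148 and 0.291 in the layer 4 litters B1 and B2, 0.359 and 1.00 in upper (C) and lower (D) layer 5, 3.81 in E and 4.28 in F. The intervals of E and F overlapped each other and lay above those of the other 5 libraries, whose intervals overlapped between neighbours in level. The slope was 0.946 log2 units per segment (limma adjusted p = 0.00392), and it was called in all 16 alternatives that gave a value. The deep libraries were higher by 2.56 ± 0.754 log2 units, which did not pass the test (adjusted p = 0.102). Few fragments stood behind the upper values, an estimated 7.01 in A and 13 in B1 against 262 in E and 363 in F, so that the 29-fold range between F and B1 is imprecise. The interval reached down to 0.0578 in A and to 0 in C. Among the de novo loci, E (30.7 FPKM) and F (34.5) were again the highest and overlapped. D (6.1) lay above A (2.97) there, and A above B1 (1.21) and C (1.3), each with intervals apart.

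Chrna5 was also the one member whose transcripts could be compared between libraries, since it has 3 Ensembl models and 7 of the 9 genes have 1. The model of ENSMUST00000093844 starts at mm9 position 54828904 and that of ENSMUST00000085769 at 54829340. These starts were not matched to the RefSeq starts printed above. ENSMUST00000093844 took 39.9% of the gene's FPKM in E (1.52, interval 0.671 to 2.36) and 48.7% in F (2.08, interval 1.25 to 2.91). ENSMUST00000085769 took 60.2% in E (2.29, interval 1.61 to 2.97) and 51.3% in F (2.19, interval 1.54 to 2.84). Both models were therefore found in the deepest libraries, and the intervals of each overlapped between E and F. The third model, ENSMUST00000093843, was listed at 0 in E and F, and no share could be read from the few fragments of A to C. In the de novo models Chrna5 ran on to position 54859139 or 54859252, past the end of its Ensembl model and up to or over the end of Chrna3 at 54859150, and the libraries did not record strand.

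Chrna7 (ENSMUSG00000030525, mm9 chr7:70243578-70357399), the alpha7 subunit, was lowest in A and peaked in D and E. Its level was 1.13 FPKM in A, 4.64 and 2.70 in B1 and B2, 6.17 in C, then 8.76 (D), 9.42 (E) and 7.42 (F). All 4 deep libraries were above all 3 upper ones, D and E did not differ beyond their intervals, and F was below both. B1 was above B2 with intervals apart, by 0.759 log2 units, a gap larger than that of 86.4% of genes within 2-fold of the level of Chrna7. The slope was 0.488 log2 units per segment (limma adjusted p = 0.00388). Without A it was 0.314 with an adjusted p of 0.0695, and it was called in the 16 other alternatives. The deep difference of 1.64 ± 0.418 log2 units did not pass (adjusted p = 0.0948).

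Chrnb2 (ENSMUSG00000027950, mm9 chr3:89557370-89568507), the beta2 partner subunit, was low in A and nearly level below it by its Ensembl model. It measured 4.79 FPKM in A, 10.5 (B1) and 8.75 (B2) in layer 4, 12.0 (C) and 10.5 (D) in layer 5, 9.65 in layer 6 (E) and 9.77 in layer 6b (F). A stood below all other libraries and C above them, B2 lay between A and the rest, and the upper and deep groups overlapped. In the de novo loci A (4.09 FPKM) was again the lowest. B1 (14.5), D (13.6) and E (12.6) lay above C (10.1) there, with intervals apart. The trend of Chrnb2 by its Ensembl model passed by a small margin, with a slope of 0.121 log2 units per segment (limma adjusted p = 0.0491). Without A the slope turned to -0.00705 (adjusted p = 0.672). The call was also lost without B2 (0.0874), C (0.121), D (0.0748) or E (0.073) and after median-of-ratios scaling (slope 0.0239, adjusted p = 0.155), and it was kept in 6 of 17 alternatives. The deep difference was 0.452 ± 0.272 log2 units (adjusted p = 0.291).

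Chrna3 (ENSMUSG00000032303, mm9 chr9:54859150-54874366), the alpha3 subunit of autonomic ganglia, was near the limit of measurement. Its level was 0.0615 FPKM at the surface (A), 0.264 and 0.186 in the layer 4 litters B1 and B2, 0.492 and 0.0598 in upper (C) and lower (D) layer 5, 0.153 in E and 0.111 in F. C was the highest, with an interval (0.377 to 0.607) above those of the other 6 libraries, which overlapped between neighbours in level. An estimated 5.61 (A) to 64 (C) fragments stood behind these values, and the widest interval spanned 153% of the mean. The slope of -0.0496 did not pass (limma adjusted p = 0.508), nor did the deep difference of 0.0565 ± 0.501 log2 units (adjusted p = 0.95).

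**Figure D1:**
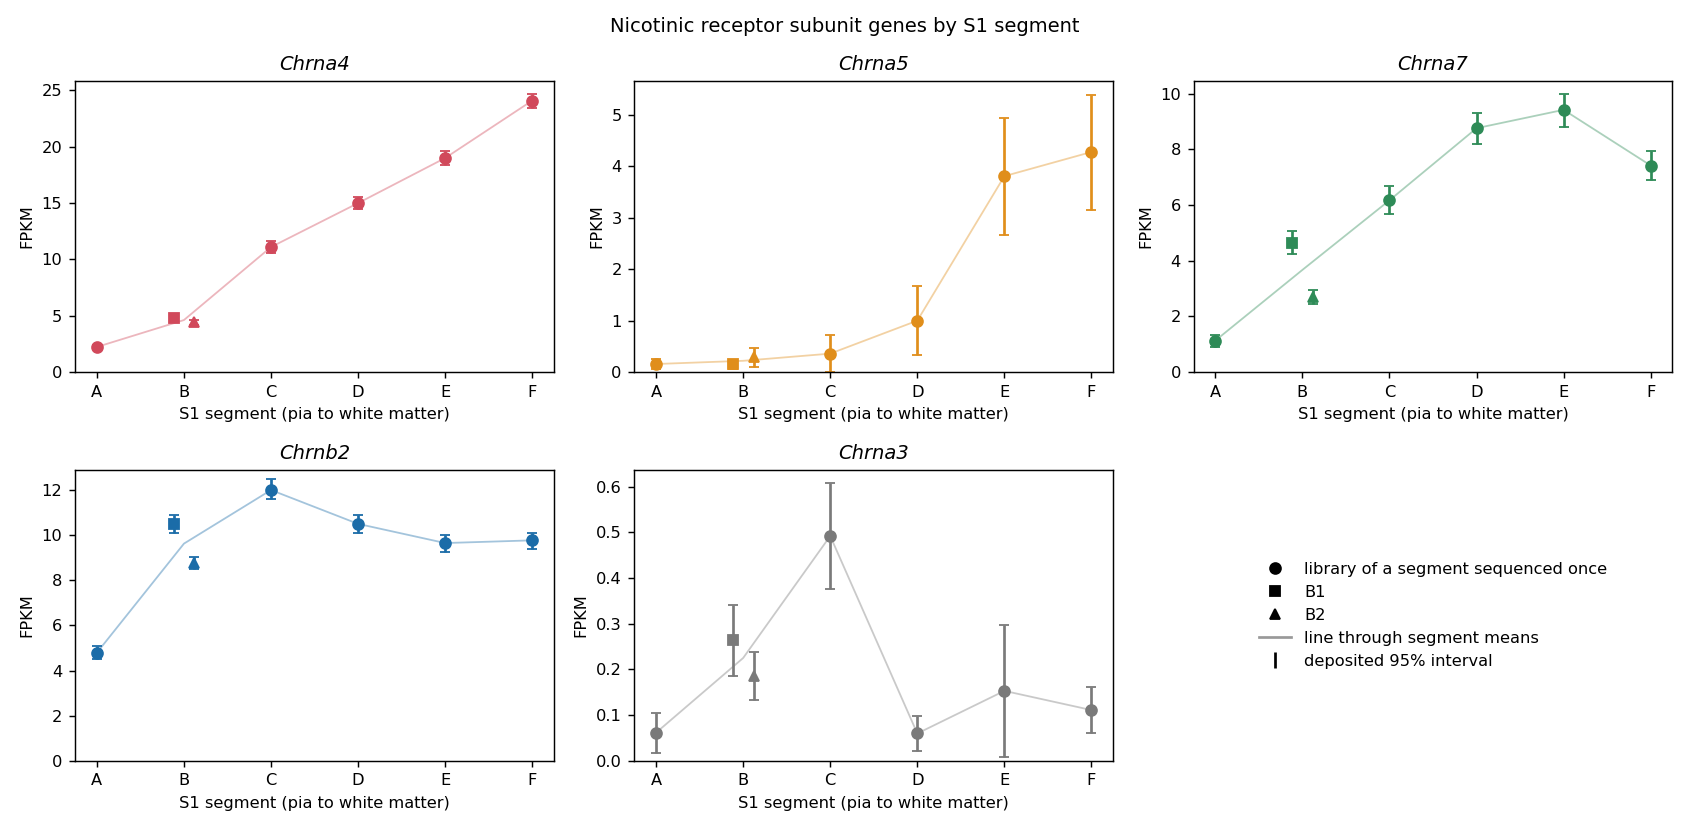
FPKM of the 5 nicotinic subunit genes (vertical axes, each from 0) in the 6 segments of S1 from the pia (A) to the white matter (F). Points are libraries, with B1 as a square and B2 as a triangle, bars are deposited 95% intervals, and lines join segment means: Chrna4 climbs from 2.23 in A to 24.1 in F, Chrna5 is high in E and F, and Chrnb2 is nearly level below A.

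Chrm1 (ENSMUSG00000032773, mm9 chr19:8738841-8756057), by the Ensembl models the most abundant receptor gene in every library, was the one member whose deep libraries all lay below the upper ones. Its level was 52.0 FPKM in A, 58.5 and 42.3 in B1 and B2, 37.9 in C, then 37.2 (D), 42.2 (E) and 35.7 (F). The groups were separated only by the small gap between B2 and E, whose intervals overlapped. The slope of -0.105 log2 units per segment did not pass (limma adjusted p = 0.216), nor did the deep difference of -0.401 ± 0.17 (adjusted p = 0.162). After median-of-ratios scaling, the slope was -0.202 and the limma test of both terms passed (adjusted p = 0.041). The de novo loci gave another ranking, with wide intervals for Chrm1 (0.471 to 67.2 FPKM in A). There Chrm3 read above Chrm1 in A (73.2 against 33.8), D, E and F, and below it in B1, B2 and C. Chrna4 read above Chrm1 in C to F (216 against 23.4 in F), and below it in A, B1 and B2.

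Chrm3 (ENSMUSG00000046159, mm9 chr13:9875859-10360049), the other Gq-coupled receptor gene, was high at both ends of the cortex and low in the middle. Its level was 30.5 FPKM in A, 21.0 (B1) and 15.2 (B2) in layer 4, 16.3 (C) and 23.8 (D) in layer 5, 30.8 in layer 6 (E) and 30.0 in layer 6b (F). The intervals of A, E and F overlapped one another, D stood apart below them, and C and B2 were lowest and did not differ beyond their intervals. The fit, which allows such a curve, did not call it (slope 0.099, limma adjusted p = 0.157), and the deep difference was 0.194 ± 0.303 log2 units (adjusted p = 0.694). The highest library was A instead of E after median-of-ratios scaling, with GC content removed and in the de novo loci.

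Chrm2 (ENSMUSG00000045613, mm9 chr6:36473210-36474610), a Gi-coupled receptor gene, was lowest in A and highest in lower layer 5 and layer 6. Its level was 0.848 FPKM at the surface (A), 3.32 and 2.74 in the layer 4 litters B1 and B2, 3.02 and 5.89 in upper (C) and lower (D) layer 5, 6.24 in E and 4.14 in F. D and E overlapped each other and stood above the rest, A stood below the rest, and the upper and deep groups overlapped through C. Its trend passed with a slope of 0.389 log2 units per segment (limma adjusted p = 0.00808). Without A it was 0.204 (adjusted p = 0.185), and with a linear term alone the adjusted p was 0.0667. The deep difference of 1.18 ± 0.464 log2 units did not pass (adjusted p = 0.145). The Ensembl model is 1 exon of 1401 nt, while the de novo loci around it reached 36337780 to 36478640. In these loci A (3.27 FPKM) was again the lowest and E (14.9) the highest, but the intervals of A and B1 overlapped, as did those of E and C. D (6.86) read below C (11.2), F (9.06) and B2 (7.96) there with overlapping intervals, and below E with intervals apart. The high level in lower layer 5 therefore rests on the Ensembl model.

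Chrm4 (ENSMUSG00000040495, mm9 chr2:91767375-91768934), the other Gi-coupled receptor gene, passed neither test, and its replicates differed by 0.866 on the log2(FPKM + 0.1) scale, the widest gap of the 9 genes. It measured 4.42 FPKM in A, 12.3 and 6.73 in B1 and B2, 8.37 in C, then 7.47 (D), 6.89 (E) and 5.60 (F). A was lowest, but the 2 libraries of layer 4 differed 1.83-fold, with B1 above every other library and B2 within the interval of E. The slope was -0.02 (limma adjusted p = 0.233) and the deep difference -0.0322 ± 0.333 log2 units (adjusted p = 0.957). Without B1 the slope was 0.0459 and the limma test of both terms passed (adjusted p = 0.0216). With a linear term alone, over all 7 libraries, the limma adjusted p was 0.899. The de novo locus at Chrm4 joined its neighbours in B1, B2, D and E, up to 91816320, and read 152 to 407 FPKM there against 2.62 to 3.31 in A, C and F, so those values were not compared.

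**Figure D2:**
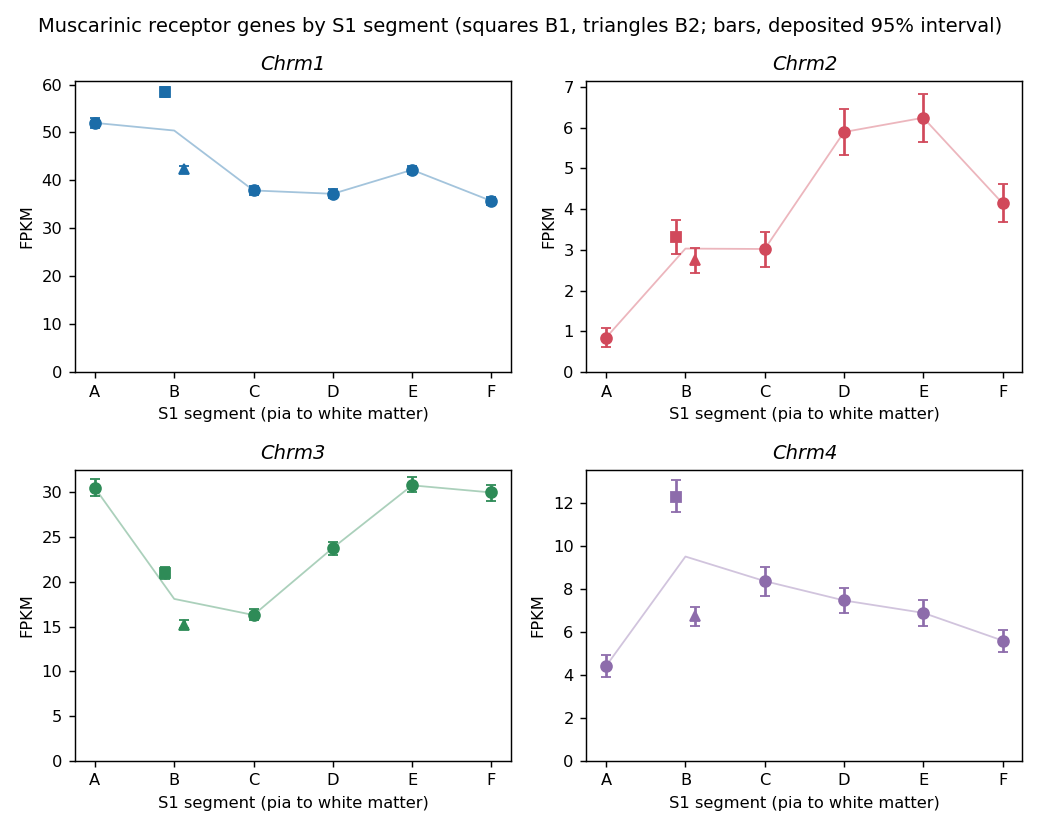
FPKM of the 4 muscarinic receptor genes (vertical axes, each from 0) in the 6 segments of S1 from the pia (A) to the white matter (F). Points are libraries, with B1 as a square and B2 as a triangle, bars are deposited 95% intervals, and lines join segment means: Chrm2 is lowest in A (0.848) and highest in E (6.24), and Chrm3 is lowest in B2 (15.2) and C (16.3).

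Read over the whole list, 5 of the 9 genes rose with depth by the trend (Chrm2, Chrna4, Chrna5, Chrna7 and Chrnb2) and 0 fell, with 0 of the falling slopes at an unadjusted p under 0.05. Here and below, a gene past this test of both terms is said to rise or fall by the sign of its linear term, also where the curve carries the call. By that limma test 36.5% of the 17844 genes were called, 28.3% rising and 8.2% falling. The median slope was 0.121 over the 9 members, 0.0395 over the muscarinic and 0.488 over the nicotinic genes, and 0.0762 over all genes tested. The deep difference called 1 of 9 members, Chrna4, against 0.504% of all genes (0.314% higher and 0.191% lower in the deep libraries). All 4 deep libraries lay above all 3 upper ones for Chrna4, Chrna5 and Chrna7, as for 26.5% of all genes, and below them for Chrm1, as for 5.14%. A had the lowest level of 5 of the 9 members and of 42.5% of all genes.

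The scale of the libraries bears on these directions. Median-of-ratios factors ran from 0.787 in A to 1.147 in F, and dividing by them moved the median deep difference of all genes from 0.246 to -0.0407 log2 units. The trend calls over all genes then changed from 5057 rising and 1464 falling (77.5% rising) to 2513 and 2543 (49.7% rising). The members' slopes all dropped. Chrna4 (0.574, adjusted p = 0.00265), Chrna5 (0.868, 0.00726), Chrna7 (0.394, 0.00833) and Chrm2 (0.297, 0.0233) kept their calls, while that of Chrnb2 was lost.

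**Figure D3:**
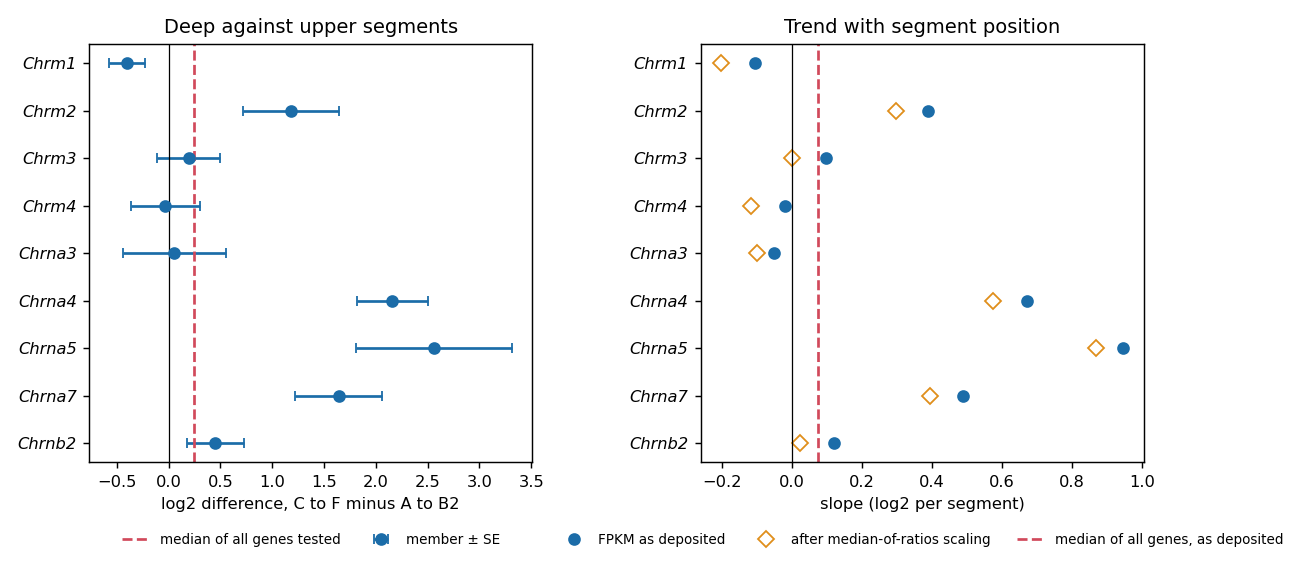
Left, the log2 difference between the deep libraries (C to F) and the upper ones (A to B2) for each member (point) with its standard error (bar), and the median of all genes tested (dashed, 0.246). Right, the slope per segment from the deposited FPKM (circles) and after median-of-ratios scaling (diamonds), with the median of all genes (dashed, 0.0762): Chrna4, Chrna5, Chrna7 and Chrm2 lie farthest to the right in both panels.

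Between neighbouring segments, where the deposited intervals of a gene were called apart only if B was clear with both B1 and B2, the members were apart most often between A and B. There, 6 were higher in B (Chrm2, Chrm4, Chrna3, Chrna4, Chrna7 and Chrnb2), 1 was lower (Chrm3) and 2 overlapped, against 29.8% of all genes higher and 19.8% lower. From B to C, 4 were higher (Chrna3, Chrna4, Chrna7 and Chrnb2) and Chrm1 was lower (19.9% of all genes higher, 5.23% lower). From C to D, Chrm2, Chrm3, Chrna4 and Chrna7 were higher and Chrna3 and Chrnb2 lower (12.4% higher, 10.2% lower). From D to E, Chrm1, Chrm3, Chrna4 and Chrna5 were higher and Chrnb2 lower (19.1% higher, 11.8% lower). From E to F, each 1 library, only Chrna4 was higher, and Chrm1, Chrm2, Chrm4 and Chrna7 were lower (22.5% higher, 17.1% lower). By the Ensembl models, Chrna4 alone was apart and higher at all 5 steps.

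The 2 litters of layer 4 gave the only spread between replicates. Between B1 and B2 the intervals of 5 members were apart, Chrm1, Chrm3, Chrm4, Chrna7 and Chrnb2, all lower in B2, against 23.1% of all genes lower and 25.3% higher in B2. The gap of each member between B1 and B2 was smaller than the 95th percentile of genes within 2-fold of its level, which was 2.08-fold to 2.94-fold. The steps beyond that percentile were Chrm2 (3.57-fold) and Chrna7 (3.24-fold) from A to B and Chrna4 from B to C. The others were Chrna3 from C to D, where it was lower in D, and Chrna5 from D to E. From E to F, 0 of the 9 members were beyond it. Between the ends of the series, F stood above A in 6 members (Chrm2, Chrm4, Chrna4, Chrna5, Chrna7 and Chrnb2) and below it in Chrm1, against 47.6% and 23.5% of all genes. Of these, Chrm2, Chrna4, Chrna5 and Chrna7 were beyond that percentile. The share of all genes beyond it was not computed for any step, so these steps describe the members only.

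Shares and ratios within a library do not depend on the scaling between libraries, and by these the make-up of the nicotinic transcripts differed from segment to segment. The sums given here and for the muscarinic genes do depend on it. The 5 subunit genes summed to 8.38 FPKM in A, 20.4 (B1) and 16.4 (B2) in layer 4, 30.1 (C) and 35.3 (D) in layer 5, 42.0 in layer 6 (E) and 45.6 in layer 6b (F). Chrnb2 took 57.2% of that sum in A and 21.4% in F, and Chrna4 took 26.7% in A, 23.7% in B1 and 52.7% in F. Chrna5 took 0.725% in B1 and 9.37% in F. The size of these shares depends on the Ensembl models. By the de novo loci, Chrna5 read above Chrnb2 in E (30.7 against 12.6 FPKM) and F (34.5 against 9.24), and below it in the other libraries. The ratio of Chrna4 to Chrnb2 FPKM was 0.466 in A, 0.46 (B1) and 0.505 (B2) in layer 4, 0.923 (C) and 1.42 (D) in layer 5, 1.97 in layer 6 and 2.46 in layer 6b. By these Ensembl models, the beta2 transcript was the more abundant from A to C, by little in C, and the alpha4 transcript from D to F. In the de novo loci, Chrna4 was the higher in A (19.6 against 4.09 FPKM), B1 (21.1 against 14.5), B2 (22.3 against 5.7) and C (73.6 against 10.1) too, so that this crossing rests on the Ensembl models alone. B1 and B2 lay close together in this ratio, and all 4 deep libraries were above them.

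The muscarinic sum moved less, from 65.6 FPKM in C to 95.2 in B1, without an order by depth. Chrm1 took 59.2% of it in A and 47.4% in F, Chrm3 took 22.1% in B1 and 39.7% in F, and Chrm2 took 0.965% in A and 7.93% in D. The ratio of Chrm3 to Chrm1, both Gq-coupled, was 0.587 in A, 0.359 and 0.36 in B1 and B2, 0.431 and 0.639 in C and D, 0.731 in E and 0.839 in F. It was lowest in layer 4, where the 2 litters were nearly equal. In the de novo loci Chrm3 read above Chrm1 in A, D, E and F, so the size of this ratio rests on the Ensembl models. Between the Gi-coupled pair, the ratio of Chrm2 to Chrm4 was 0.192 in A, 0.269 (B1) and 0.407 (B2) in layer 4, 0.36 (C) and 0.789 (D) in layer 5, 0.906 in layer 6 and 0.74 in layer 6b. It stayed under 1 in every library, and D, E and F were above the other 4. The Ensembl models of Chrm2 and Chrm4 are single exons of 1401 and 1560 nt, which may miss reads of other exons, so the size of this ratio and of the muscarinic shares depends on these models. These ratios are descriptions, with no test.

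**Figure D4:**
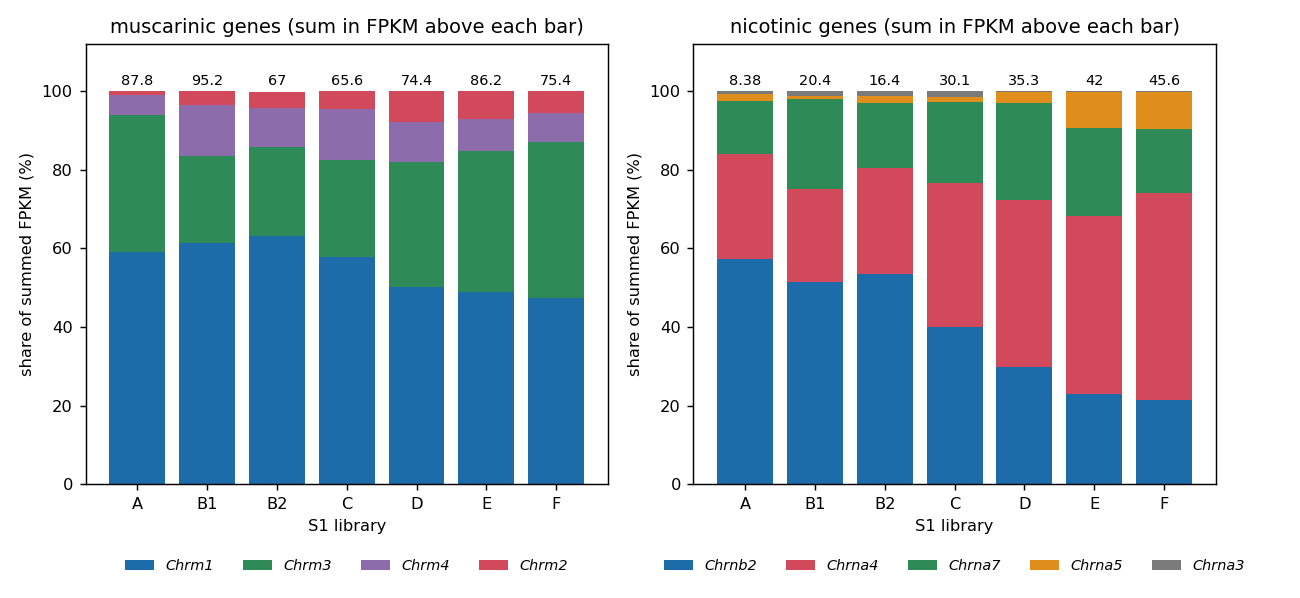
Share of each gene (percent, vertical axis) in the summed FPKM of the 4 muscarinic genes (left) and the 5 nicotinic genes (right) in each S1 library, with the sum in FPKM above each bar. By the Ensembl models, the Chrna4 share is 26.7% in A and 52.7% in F, and the Chrm1 share is 59.2% in A and 47.4% in F.

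**Figure D5:**
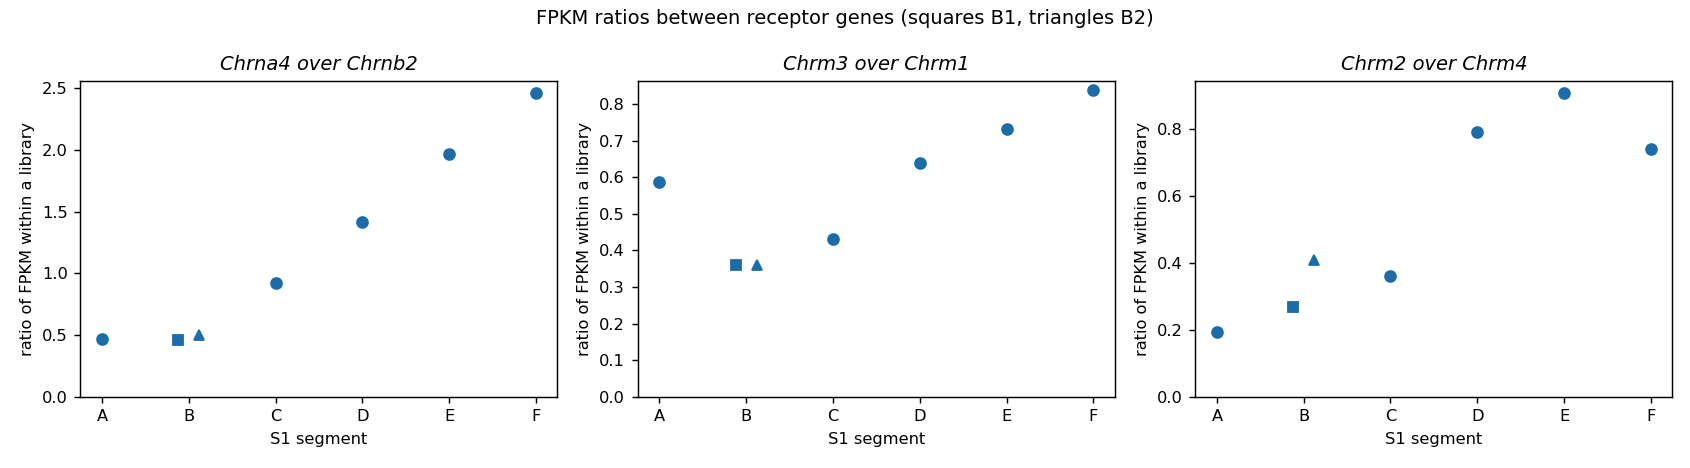
Ratio of FPKM between pairs of receptor genes within a library (vertical axes, each from 0) by segment, with B1 as a square and B2 as a triangle. Chrna4 over Chrnb2 runs from 0.46 in B1 to 2.46 in F, Chrm3 over Chrm1 is lowest in segment B, and Chrm2 over Chrm4 is above 0.7 only in D, E and F.

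The remaining acetylcholine receptor genes were scarce. Of 12, 10 were listed and 5 passed the filter (Chrna1, Chrna2, Chrna6, Chrnb1 and Chrnb3), and the trend called 0 of these 5 by limma, with 2 at an unadjusted p under 0.05. Chrnb3 was the highest, at 0.505 FPKM in D to 1.28 in A. Chrna6 read 0.474 in C and 0.36 in D and at most 0.147 elsewhere, and Chrna2 read 0.304 in C and 0.257 in D, against 0.031 to 0.149 in the other libraries. Chrna9 and Chrnd had no entry, and Chrnb4, which lies beside Chrna3, read at most 0.0302.

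Among 7 genes that make, move or break down acetylcholine, 5 were tested, and 3 rose: Bche, which encodes butyrylcholinesterase, and Colq and Prima1, which encode anchors of acetylcholinesterase. Prima1 measured 0.429 FPKM in A and 6.23 in F (slope 0.657, limma adjusted p = 0.00316). Bche measured 0.216 in A and 2.09 in F (slope 0.531, adjusted p = 0.00354). Both were highest in F, as was the summed level of the oligodendrocyte markers, whose part in this was not tested. Colq peaked in D (2.32) and was lowest in A (0.284). Ache itself, the enzyme, ran from 10.4 FPKM in B2 to 20.6 in F and did not pass (slope 0.147, adjusted p = 0.162). Chat, the enzyme of synthesis, was at 0.0199 (D) to 0.191 (A) FPKM and below the filter.

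Of 8 genes for chaperones and Ly6 proteins that act on nicotinic receptors, 5 passed with an upward slope, 1 passed with a downward slope and 2 did not pass. The chaperones Ric3 and Tmem35, which assist the assembly of alpha7 receptors, both rose: Ric3 measured 6.09 FPKM in A and 13.9 to 18.2 below (slope 0.187, limma adjusted p = 0.0216), and Tmem35 7.70 in A and 13.7 to 21.1 below (slope 0.198, adjusted p = 0.0083). Lypd6b had the steepest slope (0.548, limma adjusted p = 0.0033), from 1.04 FPKM in A to 10.4 in D, and Lypd6 rose as well. Lynx1, a brake on nicotinic receptors, was highest in upper layer 5 (136 FPKM in C) and lowest in A (37.3). The gene with the downward slope was Ly6h (slope -0.0558, limma adjusted p = 0.0197), with 193 FPKM in A, 69.8 in D and 131 in F, a level that is high at both ends.

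Of 18 genes of the Gq and Gi pathways, 9 passed with an upward slope, 2 fell and 7 did not pass. Gnai2, among the 9, did not rise with depth but was high at both ends (slope 0.0128), with 86.9 FPKM in A, 54.2 in D and 92.0 in F. Gnai3, a Gi alpha gene, measured 1.83 FPKM in A and 10.3 in F (slope 0.389, limma adjusted p = 0.00809). Gna11, an alpha gene of the Gq class, fell (slope -0.108, limma adjusted p = 0.0266), from 59.3 FPKM in A to 33.7 in D. Prkca fell (slope -0.246, limma adjusted p = 0.0109), with 22.4 in A, 33.7 in B1 and 11.0 in F. Of 6 potassium channel genes that muscarinic receptors act on, Kcnq3 and Kcnj3 passed with an upward slope, Kcnq5 with a downward slope and 3 did not pass. Kcnq3 was low at both ends, with 4.94 FPKM in A, 16.9 in C and 9.70 in F. Kcnq5, an M-current channel, was also a curve that was low at both ends and not a fall from the surface. It measured 9.01 FPKM in A, 23.7 in B1 and 6.27 in F (slope -0.17, limma adjusted p = 0.00578). The shares of rising genes in these lists stand beside 28.3% of all genes.

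Markers of the striatum, of interneurons and of neurons as a whole differed between the same libraries. Of 7 striatal markers 5 rose, and their sum was 58.4 (C) to 195 (F) FPKM, with Drd1a at 0.711 in A and 11.8 in F and Adora2a at 0.318 in C and 5.44 in F. Of 10 interneuron markers 7 passed the trend test, 3 with an upward and 4 with a downward slope, and their sum was 487 (B1) to 711 (D). The slopes of Slc32a1 (-0.00573) and Htr3a (-0.00341) were near 0, so these were curves and not falls with depth. Of 7 neuronal markers 3 rose and 2 fell, and their sum was 2536 in A and 3106 to 3841 elsewhere. The part of these in the receptor levels was not tested.

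The genes with the most similar distribution over the 7 libraries were found by the root mean square difference of their shares of the 7-library sum, among 13163 genes whose mean reached 1 FPKM. For Chrna4 these were Spon1 (1.05 percentage points), with 2.03 FPKM in A, 10.8 in C and 21.7 in F, and Galnt14 (1.25). For Chrna5 they were Syt10 (2.1), with 0.208 FPKM in B1 and 5.16 in F, and Foxp2 (2.14), a layer 6 marker. Chrna7 was matched by Trpv6 (0.877) and Cyp2s1 (0.889), and Chrnb2 by Dscam (0.465) and Jade1 (0.637). Chrm1 lay closest to Phyhip (0.275) and Sgsm2 (0.514), Chrm2 to Plch1 (1.47) and Man2a1 (1.84), and Chrm3 to Ttc9b (1.24) and Sorcs3 (1.31). Chrm4 lay closest to Arhgef17 (0.487) and Slc12a5 (0.628). Chrna3 had no near match, its closest being Susd5 (4.19).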

How the data were processed

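Per the labels and the study's methods, fragments were read as 50 nt pairs (some of F as 75 nt), mapped to mouse mm9 with TopHat 1.0.13, and the authors ran Cufflinks 0.8.3 to estimate the deposited FPKM, with 95% intervals, for the genes and transcripts of Ensembl release 57 and for loci assembled de novo. The deposited coverage (signal) of transcripts was used only to estimate fragments. Symbols came by identifier from GENCODE M21.

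Genes with a mean under 0.1 FPKM over the 7 libraries were left out, and log2(FPKM + 0.1) was fitted with limma 3.58.1 (R 4.3.3, moderated tests with an intensity trend, Benjamini-Hochberg over 17844 genes, called at an adjusted p of 0.05, direction by the linear term). The fit was tested on simulated data. The trend left 4 residual degrees of freedom. Members and gene lists were chosen with earlier results of these data known. All members and pathway genes were counted, and genes past the trend test or at the ends of a list's range were named, except some that are not reported here. The alternatives changed the pseudocount (0.01, 1), filters, scaling, GC content, trend terms, interval widths, treatment of B1 and B2, and left out each library. Figures were drawn in Python 3.11.15.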

Additional observations from a re-analysis of the deposited data

How the results depend on the processing

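Over all genes, the trend called 6521, with 1402 (without A) to 9200 (without B1) when 1 library was left out and 2662 with a linear term alone. It called 5 members, 2 to 6 with a library left out, and 3 with a linear term alone (Chrna4, Chrna5 and Chrna7). The deep difference called 90 genes, 15 (without E) to 162 (without C) with a library left out, 40 without a filter and 56 under a limit on interval width. Leaving out upper layer 5 is the same fit as leaving out C. The deep difference called 1 member, 0 to 1 with a library left out, and 0 without a filter, after median-of-ratios scaling, without the intensity trend and with B1 and B2 averaged. The 28 steps of members between neighbouring segments became 18 when every interval was widened 2 times, 27 after median-of-ratios scaling, 30 without B1 and 31 without B2.

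With a library left out, the slope ran from -0.162 to 0.0615 in Chrm4, from -0.212 to 0.00276 in Chrna3 and from -0.00705 to 0.188 in Chrnb2. The deep difference ran from -0.0496 to 0.45 in Chrm3, from -0.375 to 0.356 in Chrm4 and from -0.327 to 0.31 in Chrna3. Directions turned only in members that were not called, apart from Chrnb2 (slope -0.00705 without A). The slope of Chrm4 turned to 0.00329 with B1 and B2 averaged, 0.0291 with GC content removed, 0.0459 without B1 and 0.0615 without F, and that of Chrna3 without F. The deep difference of Chrm3 turned to -0.119 after median-of-ratios scaling and -0.0496 without B2. That of Chrm4 turned to 0.107 with B1 and B2 averaged, 0.17 with GC content removed, 0.356 without B1 and 0.0742 without F. That of Chrna3 turned to -0.11 after median-of-ratios scaling, -0.0991 with GC content removed, -0.276 without A and -0.327 without C or with upper layer 5 left out. The cause was not tested. No paired analysis was possible because each segment except B was 1 library pooled from the same 8 mice. There was 1 library in 5 of the 6 segments, and there were no fragment counts. Differences between segments therefore rest on a fitted curve, on means of groups of segments or on intervals within a library. The values of Chrna3 and of Chrna5 in A to C rest on few fragments.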
